A study of Mus musculus with 3 samples.

Results

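The angiopoietin-TIE pathway was followed through 6 listed genes of the 31053 that were counted, by a list that puts no threshold on any measured value: the ligands *Angpt1* and *Angpt2*, the receptors *Tek* and *Tie1*, the phosphatase *Ptprb* and the ligand partner *Svep1*. Their transcripts were counted as unique molecular identifiers (UMIs, 1 per captured mRNA molecule) in single cells of the mouse limbus and iridocorneal angle, the corner of the eye where the vessel called Schlemm's canal (SC) runs beside its filter tissue, the trabecular meshwork (TM). There were 3 droplet libraries from mice of 6 weeks on a mixed background: 2 from *Angpt1* flox/flox eyes, called control 1 and control 2, and 1 from *Angpt1* flox/flox;Wnt1Cre+ eyes, called *Angpt1*ΔNC. All mice therefore carried the floxed allele, and the *Angpt1*ΔNC mice also carried a Cre driven by the *Wnt1* promoter, which acts in the neural crest lineage, so that *Angpt1* outside that lineage is left intact. For these libraries the study crossed the line for 2 generations onto wild-type ICR mice, so that the animals were albino. Each library pooled eyes of several mice, of both sexes by the study's account, and the *Angpt1*ΔNC group is a single pool.

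ANGPT1 is the activating ligand of the receptor tyrosine kinase TEK (also TIE2), while ANGPT2 can act as a weak agonist or as an antagonist depending on the setting. TIE1 is a related receptor without a classical ligand that modulates TEK, PTPRB (VE-PTP) is an endothelial phosphatase that removes phosphate from TEK, and SVEP1 (Polydom) is a large extracellular matrix protein that binds ANGPT1. In the anterior eye this pathway is known for the growth and upkeep of SC, which drains aqueous humor.

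*Tek*, *Tie1* and *Svep1* all lie on chromosome 4 of the mouse genome, but the first pair was counted mainly in endothelial cells and the last in stromal cells. The start regions of these genes are printed below, each running from 250 bases before to 50 bases after the gene start, as given by RefSeq for build GRCm38.p6. Capitals mark GGAA, the core letters that ETS family transcription factors recognise, or TTCC where GGAA lies on the opposite strand. The *Tek* region is chr4:94739039-94739338 on the plus strand, the *Tie1* region chr4:118489800-118490099 on the minus strand and the *Svep1* region chr4:58206547-58206846 on the minus strand.
Tek: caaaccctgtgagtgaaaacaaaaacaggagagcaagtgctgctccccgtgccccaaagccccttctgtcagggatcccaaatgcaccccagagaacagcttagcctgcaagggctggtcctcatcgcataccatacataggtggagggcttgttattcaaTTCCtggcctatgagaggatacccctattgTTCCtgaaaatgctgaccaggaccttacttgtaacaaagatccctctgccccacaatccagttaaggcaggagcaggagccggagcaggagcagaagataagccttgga
Tie1: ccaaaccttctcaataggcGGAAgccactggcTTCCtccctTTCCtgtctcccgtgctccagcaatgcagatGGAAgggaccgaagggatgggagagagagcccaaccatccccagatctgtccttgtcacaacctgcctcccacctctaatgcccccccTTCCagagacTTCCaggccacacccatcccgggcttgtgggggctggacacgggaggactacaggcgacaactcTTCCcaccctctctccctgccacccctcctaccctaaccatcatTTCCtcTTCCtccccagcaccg
Svep1: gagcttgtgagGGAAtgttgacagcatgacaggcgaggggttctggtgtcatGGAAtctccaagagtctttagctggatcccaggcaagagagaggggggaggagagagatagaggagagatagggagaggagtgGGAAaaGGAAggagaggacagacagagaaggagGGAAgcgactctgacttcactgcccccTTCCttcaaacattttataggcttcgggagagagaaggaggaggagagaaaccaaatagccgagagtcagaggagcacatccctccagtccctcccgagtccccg
The *Tie1* region held 9 matches on either strand, none of them overlapping, and only 1.59% of the 32851 mouse regions of the same length held as many. Most of that region lies inside exon 1 of the main *Tie1* transcript in the GENCODE annotation (118489648 to 118490061), so these matches are largely in transcribed sequence by that annotation. The *Svep1* region held 6, a number reached by 15.7% of all regions, and the *Tek* region held 2, a number reached by 84.6%. As 96.0% of all regions held at least 1 match, with a median of 3.0, the letters did not set the *Tek* region apart from other genes.

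The other members lie elsewhere, with *Angpt1* on chromosome 15 (42424723 to 42676977, minus strand), *Angpt2* on chromosome 8 (18690263 to 18741562, minus strand) and *Ptprb* on chromosome 10 (116275523 to 116389535, plus strand). *Tek* spans 94739289 to 94874976, *Tie1* 118471191 to 118490061 and *Svep1* 58042442 to 58206859 of chromosome 4. *Angpt1*, *Angpt2* and *Svep1* each overlap another counted gene on the opposite strand (Gm17473, Mcph1 and Gm26889). Whether counting used strand is not given in the sources used here, and their counts carry that limit.

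The cells kept by the authors numbered 9076 in control 1, 10160 in control 2 and 6772 in *Angpt1*ΔNC, with 76981606, 80346829 and 66484181 UMIs, and the deposited cell labels were used as they are. Pairs of libraries shared between 13 and 25 cell barcodes. Endothelium means the labels SC, LEC (lymphatic) and EC2 to EC4, TM stroma means TM1 to TM11, and mural cells mean clusters 19, 20 and 21, called smooth muscle, pericytes and vascular smooth muscle in the study. The study does not call cluster 19 vascular, so mural cells here may hold more than cells of vessel walls. Cluster 17 is a further stromal label. TM stroma is wider than its name, since the study read keratinocyte features in TM1, corneal endothelial genes in TM2 and corneal stromal genes in TM10. It interpreted TM6 to TM9, which include the labels richest in *Angpt1*, as cells of the uvea, and proposes that TM7 may be associated with the TM. A UMI of *Xist* without a Y-linked UMI was counted in 0 and 1 control cells and in 3861 *Angpt1*ΔNC cells, so sex and genotype cannot be told apart except among cells with a Y-linked UMI and no *Xist*, here called male-typed. Levels are UMIs per 10,000 UMIs of the cells of a label, with exact 95% Poisson intervals that cover counting error only. Labels were made by clustering these cells, so differences between labels are descriptions, and for the SC label a near absence in *Angpt1*ΔNC was part of how the study found it.

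**Figure D1:**
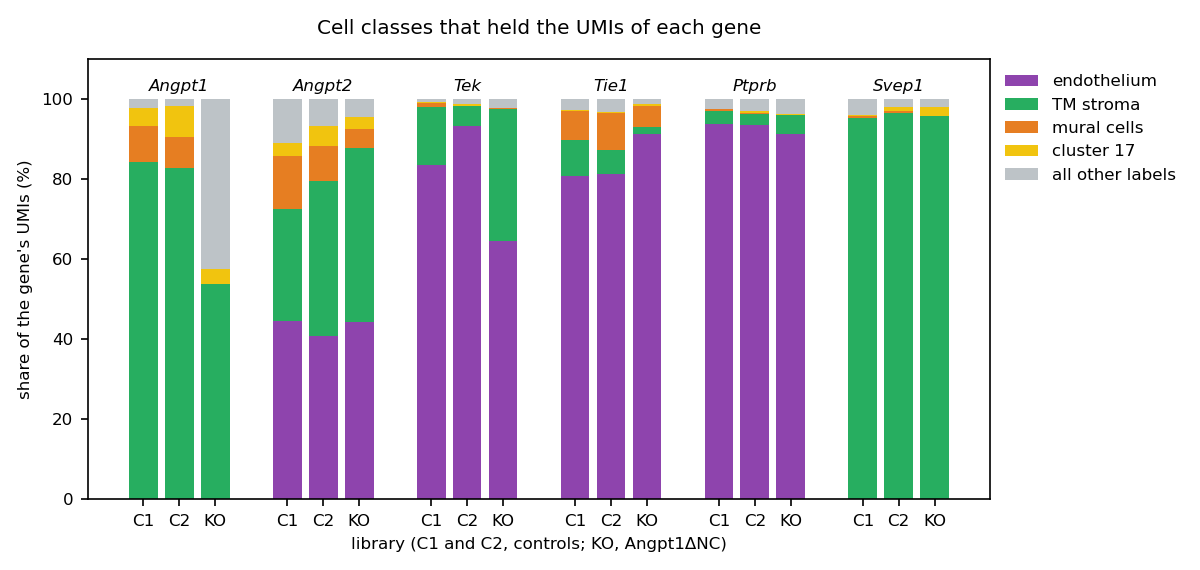
Share of each gene's UMIs (%, y axis) held by each cell class, with 1 bar per library (x axis; C1 and C2, controls; KO, *Angpt1*ΔNC). TM stroma held 84.4% and 82.8% of the control *Angpt1* UMIs and endothelium 94.0% and 93.6% of the control *Ptprb* UMIs, while *Angpt2* was spread over several classes; the *Angpt1*ΔNC bar of *Angpt1* rests on 26 UMIs.

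In control eyes *Angpt1* was a transcript of the stroma and of mural cells. TM stroma held 2457 of its 2911 UMIs in control 1 and 2615 of 3158 in control 2, and mural cells held 8.86% and 7.79%. TM6 had 2.87 UMIs per 10,000 in control 1 and 2.26 in control 2, and TM7 had 2.55 and 2.18. These labels were not separated from each other by the spread of the controls, but TM7 lay above TM4, the next label, in both. TM4, which carries TM marker genes in the study, had 1.75 and 1.38, TM8 had 1.39 and 1.61, and TM3 had 1.48 and 1.15. TM9 followed at 1.01 and 1.14, above all remaining labels in each control. From TM11 (0.558 and 0.561) through cluster 17 (0.582 and 0.521) to cluster 20 (0.591 and 0.397) and cluster 19 (0.454 and 0.446), neighbouring labels overlapped. Endothelial cells, where most *Tek* was counted, held 2 and 3 *Angpt1* UMIs in all.

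The targeted gene was nearly absent from TM stroma, mural cells and cluster 17 in *Angpt1*ΔNC. TM stroma had 1.34 UMIs per 10,000 in control 1 (interval 1.29 to 1.40), 1.14 in control 2 (1.10 to 1.19) and 0.00898 in *Angpt1*ΔNC (0.00491 to 0.0151), that is 14 UMIs in 13 of 1946 cells. The fitted change was -7.10 ± 0.26 on the log2 scale (SE, 2 control libraries against 1, edgeR adjusted p = 3.92e-06), in a class where 8.97% of the 13942 genes tested passed. All 6 members passed the filter on low counts in TM stroma, 4 did in endothelium (not *Angpt1* and *Svep1*), 3 in mural cells (*Angpt1*, *Angpt2* and *Tie1*) and 3 in cluster 17 (*Angpt1*, *Angpt2* and *Svep1*). In mural cells there were 258 and 246 UMIs in the controls and 0 in *Angpt1*ΔNC, a level at least 21.7-fold lower than in either control when set at 3 UMIs (edgeR adjusted p = 1.37e-06, with 16.4% of 11606 genes called). In cluster 17 there were 130, 245 and 1 UMIs (log2 change -7.63 ± 0.41, edgeR adjusted p = 0.00625, with 0.288% of 11444 genes called). The excised part is exon 1 per the study (chromosome 15, 42676165 to 42676977, in the main annotated transcript), while 3′ tags are read near the last exon (42424723 to 42427130), so these counts measure the level of the transcript and not the excision.

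Among single stromal labels *Angpt1* was at 0 UMIs in *Angpt1*ΔNC in TM1, TM5, TM6, TM8 and TM10. Set at 3 UMIs, this made it at least 38.5-fold lower than in either control in TM8, at least 21.2-fold in TM10 and at least 18.4-fold in TM6. TM7 kept 5 UMIs in 4 of 174 cells (0.0390 per 10,000), against 998 and 1022 UMIs in 667 and 739 control cells. Fitted alone, TM4 gave -8.62 (edgeR adjusted p = 1.18e-08, 6.52% of its genes called) and TM2 gave -4.89 (edgeR adjusted p = 0.00851, 1.39% called). The pericyte label, cluster 20, had 0 *Angpt1* UMIs in *Angpt1*ΔNC, at least 12.7-fold lower than in either control (edgeR adjusted p = 3.08e-05, 7.67% called).

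Residual *Angpt1* in *Angpt1*ΔNC lay partly outside the stroma. The ciliary and retinal pigment epithelium (clusters 1 and 7) held 42.3% of the 26 UMIs, against 0.790% and 0.0950% of the control UMIs. Cluster 1 had 5 UMIs in 133 cells of control 1, 2 in 81 of control 2 and 7 in 17 of *Angpt1*ΔNC, which is 0.0205, 0.0179 and 0.186 per 10,000. The 7 UMIs include 3 from a single cell, without which the level in *Angpt1*ΔNC was 0.112. Cluster 7 had 18, 1 and 4 UMIs, and there *Angpt1*ΔNC lay between the controls.

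**Figure D2:**
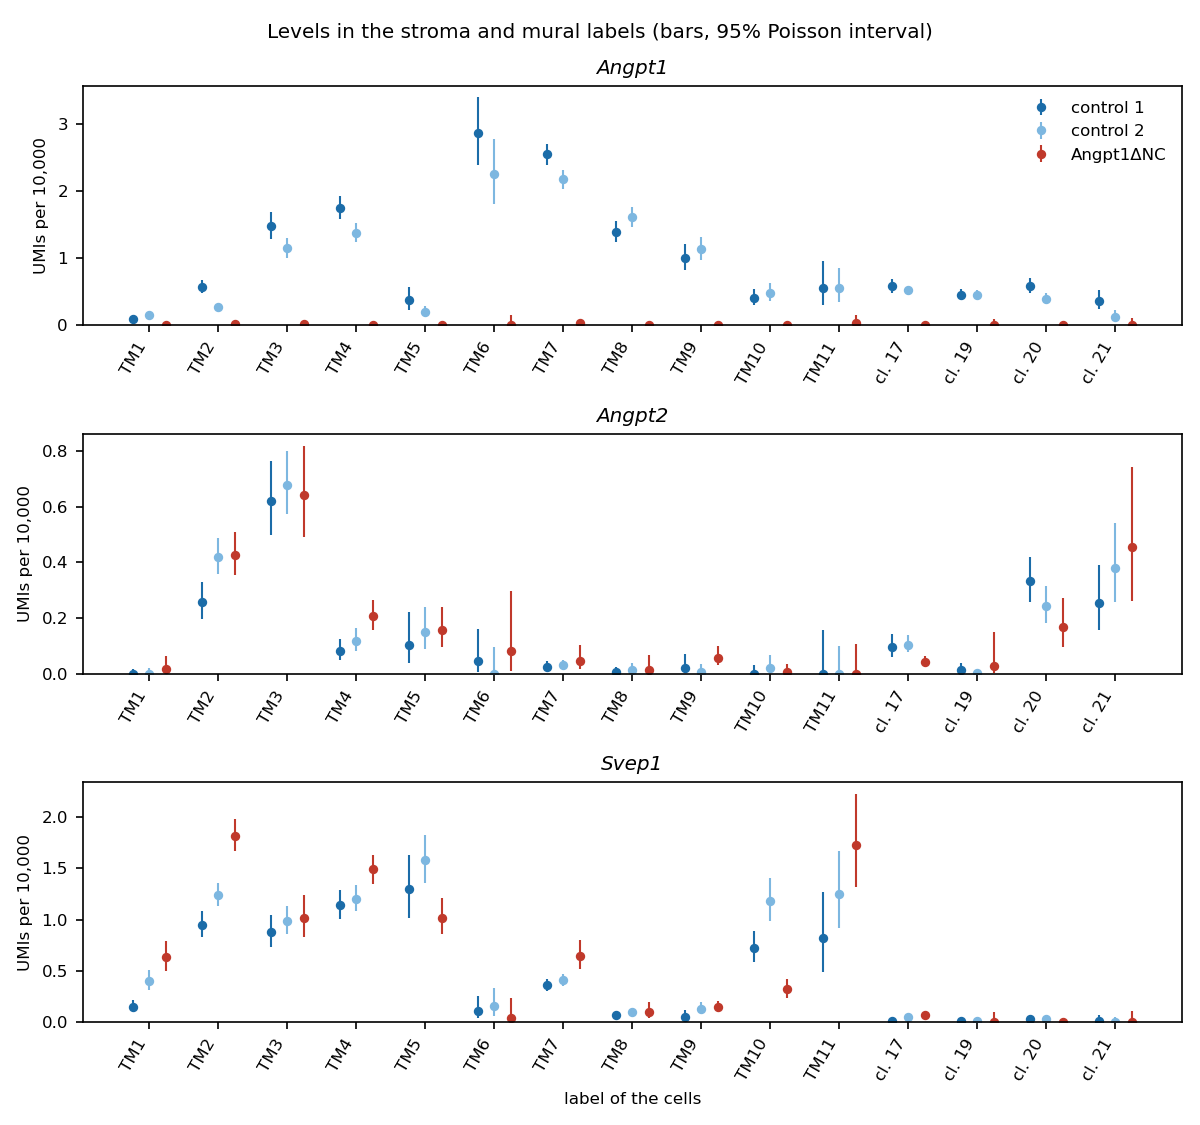
UMIs per 10,000 (y axis) of *Angpt1*, *Angpt2* and *Svep1* in each TM label, cluster 17 and the mural clusters (x axis), with 1 point per library and 95% Poisson intervals as bars. *Angpt1* is near 0 in *Angpt1*ΔNC in each of these labels, *Angpt2* is highest in TM3 (0.620, 0.679 and 0.641), and *Svep1* in TM10 is below both controls in *Angpt1*ΔNC (0.721, 1.18 and 0.318).

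*Angpt2*, the context-dependent ligand, was counted in endothelium, TM stroma and mural cells. Endothelium held 44.6% of its UMIs in control 1, 40.7% in control 2 and 44.3% in *Angpt1*ΔNC, and TM stroma held 27.9%, 38.9% and 43.4%. EC3 was the highest label of the controls at 1.75 and 2.05 UMIs per 10,000, followed by EC4 at 1.10 and 1.03 and EC2 at 0.869 and 0.751, each above the next in both controls. TM3 came next at 0.620 and 0.679, above SC at 0.345 and 0.427. Of EC2, EC3, EC4 and SC, SC was thus the lowest for this ligand, and 13 of the 19 SC UMIs of control 1 came from 1 cell, without which its level was 0.110. In the surface epithelium of clusters 4 and 5, used as the background for free RNA, *Angpt2* was at 0.00508, 0.00506 and 0.00522 in the 3 libraries.

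In endothelium *Angpt2* was higher in *Angpt1*ΔNC, at 1.62 UMIs per 10,000 (interval 1.44 to 1.81) against 1.19 (1.06 to 1.33) in control 1 and 1.32 (1.19 to 1.45) in control 2. The fitted change was 0.53 ± 0.16 on the log2 scale (edgeR adjusted p = 0.0253), and 12.9% of the 9660 genes tested in endothelium were called, 62.7% of them higher in *Angpt1*ΔNC. Scaling by library totals without TMM factors (the edgeR correction for composition) moved the median of all endothelial genes from -0.02 to -0.19 and the higher share of the calls to 35.1%. The *Angpt2* call was lost under that scaling (adjusted p = 0.121, 0.36), with DESeq2 (adjusted p = 0.717, 0.54), without the LEC cells (adjusted p = 0.0709, 0.48) and in blood endothelium alone (adjusted p = 0.399, 0.26), and it was kept in male-typed cells (adjusted p = 0.00291, 0.73). LEC numbered 3, 1 and 12 cells, and in *Angpt1*ΔNC it had 36 *Angpt2* UMIs in 6 of 12 cells, 22 of them in 1 cell. Without that cell endothelial *Angpt2* stood at 1.54 in *Angpt1*ΔNC, still above both controls.

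The *Angpt2* level of *Angpt1*ΔNC lay above the controls in some endothelial labels and below them in another. EC4 had 76 UMIs in control 1, 66 in control 2 and 136 in *Angpt1*ΔNC, or 1.10, 1.03 and 1.87 per 10,000, and SC had 0.345, 0.427 and 1.02. Both lay above the controls in *Angpt1*ΔNC, while EC3 (1.75, 2.05 and 1.62) lay below them. Fitted alone, EC4 gave a log2 difference of 0.98 ± 0.23 (edgeR adjusted p = 0.0535), SC 1.49 ± 0.46 (edgeR adjusted p = 0.0761) and EC3 -0.10 (edgeR adjusted p = 0.871), so no single label passed, where 2.95% of EC4, 3.03% of SC and 7.30% of EC3 genes did. SC of *Angpt1*ΔNC had 15 *Angpt2* UMIs in 4 of 15 cells, against 6 of 46 and 9 of 63 control cells.

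Outside endothelium the *Angpt2* differences did not pass the test. In TM stroma the levels were 0.104, 0.169 and 0.187 per 10,000 in control 1, control 2 and *Angpt1*ΔNC, with a log2 difference of 0.44 ± 0.28 (edgeR adjusted p = 0.360). Mural cells had 0.176, 0.137 and 0.197 (0.53 ± 0.30, edgeR adjusted p = 0.244). Cluster 17 went the other way at 0.0941, 0.104 and 0.0410 (-1.12 ± 0.35, edgeR adjusted p = 0.185), and passed there without TMM factors (-1.28, adjusted p = 0.0319). The difference in cluster 17 was below that in endothelium by 1.64 on the log2 scale (edgeR interaction term, adjusted p = 0.000922), so these classes differed in their genotype difference although cluster 17 alone did not pass with TMM factors. TM4 had 0.0814, 0.118 and 0.206 and, fitted alone, gave 1.06 ± 0.32 (edgeR adjusted p = 0.0649).

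*Tek*, the ANGPT1 receptor, was an endothelial transcript in the controls, with 83.7% and 93.3% of its UMIs in endothelium. EC3 was highest at 1.70 and 1.96 UMIs per 10,000. SC (1.25 and 1.13), EC2 (1.11 and 1.14) and EC4 (0.942 and 1.17) followed and did not differ beyond the spread of the controls. All lay above TM10, the highest label outside endothelium. The surface epithelium gave 0 of 989, 0 of 1012 and 2 of 911 cells with a *Tek* UMI, the zeros allowing a share of cells with a UMI of up to 0.303% and 0.296% by counting error (3 cells).

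Endothelial *Tek* was lower in *Angpt1*ΔNC. The levels were 1.35 UMIs per 10,000 in control 1 (interval 1.21 to 1.50), 1.51 in control 2 (1.37 to 1.65) and 0.850 in *Angpt1*ΔNC (0.722 to 0.995), and 154 of 295, 190 of 327 and 88 of 209 cells held a UMI. The interval of *Angpt1*ΔNC ended below those of the controls. The fitted change was -0.58 ± 0.18 on the log2 scale (edgeR adjusted p = 0.0273), in male-typed cells alone it was -0.67 (edgeR adjusted p = 0.0378), and without TMM factors it was -0.75 (edgeR adjusted p = 0.000773). The call was lost with DESeq2 (adjusted p = 0.711, -0.58), without LEC (adjusted p = 0.103, -0.48) and in blood endothelium (adjusted p = 0.0691, -0.61), each with the same sign, and with equal weight for each label the difference was -0.39.

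By label, *Tek* was lower than both controls in EC3 (1.70, 1.96 and 1.16) and EC4 (0.942, 1.17 and 0.619), whereas in SC it stood between them (1.25, 1.13 and 1.23). No label passed when fitted alone, with -0.53 ± 0.24 in EC3 (edgeR adjusted p = 0.208), -0.60 ± 0.29 in EC4 (edgeR adjusted p = 0.346), -0.13 in EC2 (edgeR adjusted p = 0.906, 5.36% of its genes called) and 0.15 in SC (edgeR adjusted p = 0.905). The SC value of *Angpt1*ΔNC rests on 18 UMIs in 15 cells, and its interval of 0.727 to 1.94 spans the levels of every blood endothelial label of that library except EC4.

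Some other measures of the endothelial pool moved with these results. SC made up 15.6% and 19.3% of endothelial cells in the controls and 7.18% in *Angpt1*ΔNC, EC3 40.0%, 36.1% and 27.8%, and EC4 32.5%, 32.7% and 41.6%. The 6 endothelial markers summed to 79.7, 84.2 and 80.5 UMIs per 10,000, with *Angpt1*ΔNC between the controls, and were all detected in each library. The 4 lymphatic markers summed to 1.59, 1.83 and 3.37, the 5 stromal markers to 0.481, 0.661 and 1.50, and the 6 pericyte markers to 1.61, 0.882 and 0.578, with *Cspg4* at 0 in the controls and *Notch3* at 0 in *Angpt1*ΔNC. LEC made up 1.02%, 0.306% and 5.74%. With equal weight for each label, without LEC and TMM factors, the differences were -0.39 for *Tek* and 0.38 for *Angpt2*. The part of these measures in the *Tek* and *Angpt2* results was not tested beyond that, leaving out LEC and fitting the labels alone.

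**Figure D3:**
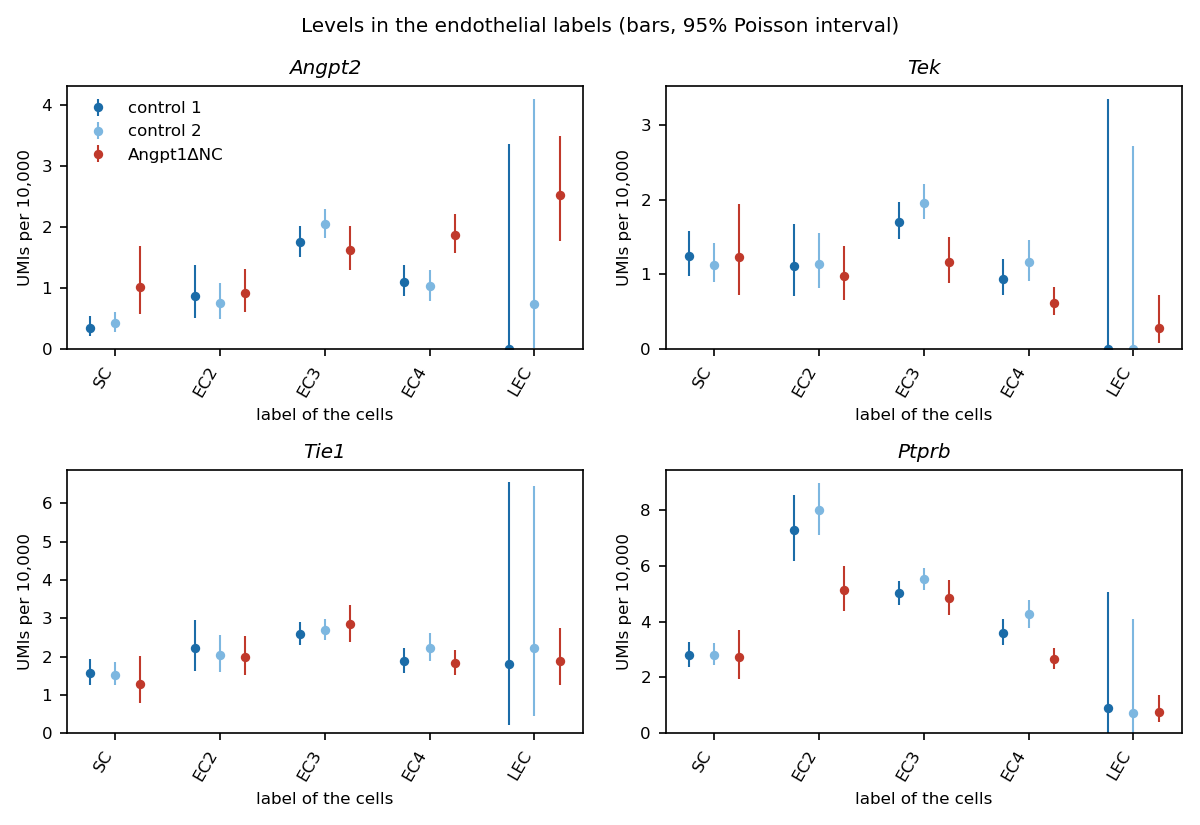
UMIs per 10,000 (y axes) of *Angpt2*, *Tek*, *Tie1* and *Ptprb* in the endothelial labels (x axes), with 1 point per library and 95% Poisson intervals as bars. *Tek* in EC3 is 1.70 and 1.96 in the controls and 1.16 in *Angpt1*ΔNC, *Angpt2* in EC4 is 1.10, 1.03 and 1.87, and the control LEC points rest on 3 cells and 1 cell.

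*Tek* was also counted in TM10, a stromal label with corneal stromal genes in the study. TM10 held 52 of the 59 TM stroma UMIs of control 1, 18 of 25 of control 2 and 78 of 80 of *Angpt1*ΔNC, while the other TM labels together held 7, 7 and 2. A *Tek* UMI was found in 39 of 194, 11 of 167 and 47 of 188 TM10 cells, or 0.412, 0.165 and 0.507 UMIs per 10,000, so the controls differed from each other by more than control 1 from *Angpt1*ΔNC. The receptor was found there with few other endothelial transcripts. *Tie1* was at 0 in all TM10 cells of all 3 libraries, and any of the 6 endothelial markers was found in 5 of the 39, 1 of the 11 and 1 of the 47 *Tek*-positive cells (12.8%, 9.09% and 2.13%), against 5.16%, 5.13% and 3.55% of the *Tek*-negative TM10 cells, at median depths of 8228, 8461 and 10439 UMIs against 6313, 6520.5 and 7528. *Angpt1* was found with *Tek* in 5 and 2 control TM10 cells and in 0 of *Angpt1*ΔNC. Stromal markers summed to 196, 166 and 222 UMIs per 10,000 in the same cells.

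TM10 *Tek* was higher in *Angpt1*ΔNC when the label was fitted alone (log2 change 0.84 ± 0.30, edgeR adjusted p = 0.0491), where 11.6% of the 8527 genes tested were called. Over all of TM stroma the difference was 1.30 ± 0.48 (edgeR adjusted p = 0.131). It ranged from 0.72 without control 2 to 2.19 without control 1, and it passed without a filter on low counts (1.29, adjusted p = 0.000586) and in male-typed cells (2.44, adjusted p = 9.55e-05). The genotype difference of *Tek* in TM stroma lay above that in endothelium by 1.91 on the log2 scale, which did not pass (edgeR interaction term, adjusted p = 0.0697).

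*Tie1*, the second receptor of the family, was found over the same endothelial labels, with 80.9%, 81.4% and 91.4% of its UMIs in endothelium. EC3 had 2.59 and 2.69 UMIs per 10,000 in the controls and 2.84 in *Angpt1*ΔNC. EC2 (2.22, 2.03 and 1.98) and EC4 (1.87, 2.22 and 1.83) were not separated, and SC was the lowest of these labels at 1.56, 1.53 and 1.29. Endothelium as a whole had 2.14, 2.26 and 2.09, intervals that overlap (1.96 to 2.33, 2.09 to 2.43 and 1.89 to 2.31). The log2 difference was 0.10 ± 0.16 (edgeR adjusted p = 0.770), and its sign depended on the scaling, as it was -0.07 without TMM factors (edgeR adjusted p = 0.821). *Tie1* and *Tek* UMIs were found together in 40.7%, 47.1% and 36.8% of endothelial cells. Among *Tek*-positive cells 77.9%, 81.1% and 87.5% held *Tie1*, against 57.4%, 67.2% and 62.0% of *Tek*-negative cells, a comparison that depth per cell also moves.

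*Tie1* was further counted in cluster 20, the pericyte label. There 43 of 461 cells of control 1, 67 of 512 of control 2 and 16 of 222 of *Angpt1*ΔNC held a UMI, or 0.215, 0.328 and 0.199 UMIs per 10,000. In these *Tie1*-positive cells the endothelial markers *Cdh5*, *Pecam1*, *Cldn5* and *Erg* had 0 UMIs in every library and *Egfl7* had 2, 6 and 0. *Emcn* stood at 6.08, 7.74 and 4.18 per 10,000, and the pericyte markers *Rgs5* and *Kcnj8* at 111, 111 and 98.5 and at 10.5, 12.5 and 11.8. Summed, the 6 endothelial markers stood at 6.19, 7.94 and 4.18 per 10,000 in these cells and at 5.87, 6.53 and 3.44 in the *Tie1*-negative cells of cluster 20, and nearly all of either sum was *Emcn*. The pericyte markers follow from the choice of a pericyte label. Genotypes did not differ beyond the test in mural cells (0.47 ± 0.36, edgeR adjusted p = 0.411) or in cluster 20 alone (-0.43 ± 0.38, edgeR adjusted p = 0.563), and with equal weight for each mural label the value was -0.03.

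**Figure D4:**
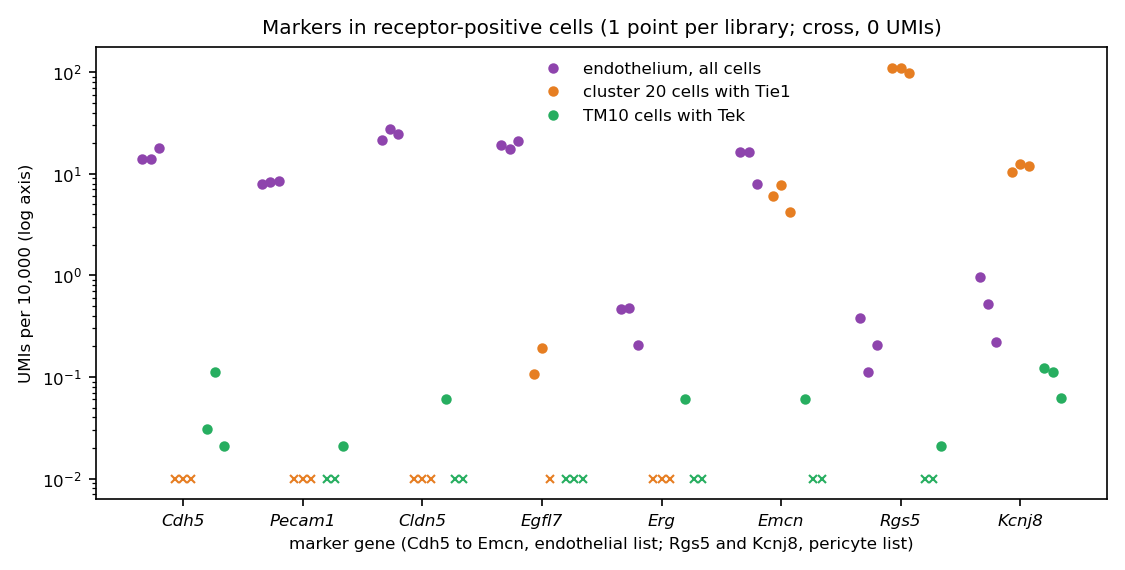
UMIs per 10,000 (y axis, log scale) of 6 endothelial and 2 pericyte markers (x axis) in all endothelial cells, in cluster 20 cells with a *Tie1* UMI and in TM10 cells with a *Tek* UMI, with 1 point per library and a cross where there were 0 UMIs. *Cdh5* was at 14.1, 14.1 and 18.1 in endothelium and at 0 in the *Tie1*-positive cluster 20 cells, in which *Rgs5* was at 111, 111 and 98.5.

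In TM stroma *Tie1* was rare in the controls and rarer in *Angpt1*ΔNC. There were 61 UMIs in control 1, 51 in control 2 and 7 in *Angpt1*ΔNC, or 0.0334, 0.0223 and 0.00449 per 10,000. TM8 held most of the control UMIs, with 27 of 591, 30 of 612 and 2 of 155 cells positive (0.136, 0.113 and 0.0241 per 10,000), and TM9 had 0.146, 0.0649 and 0.00949. The fitted change was -2.60 ± 0.52 on the log2 scale (edgeR adjusted p = 0.0190), and with DESeq2 it did not pass (-2.61, adjusted p = 0.0838). It was below the change in endothelium by 2.66 (edgeR interaction term, adjusted p = 0.0134). TM8 made up 21.1% and 18.4% of TM stroma cells in the controls and 7.97% in *Angpt1*ΔNC, while TM9 made up 7.28%, 8.97% and 16.8%. The 6 endothelial markers summed to 1.26, 1.16 and 0.782 per 10,000, with *Cdh5* at 0.0235, 0.0245 and 0.00642 per 10,000 and *Emcn* at 1.03, 0.952 and 0.431 in TM stroma, although *Cldn5* was at 0.00985, 0.0140 and 0.242. Within the *Tie1*-positive TM stroma cells, *Pecam1* had 0 UMIs in all libraries and *Cdh5* had 1, 0 and 0. With equal weight for each TM label, which also drops the TMM factors, the *Tie1* difference was -2.70. Beyond that, the part of the label shares and of these markers in the *Tie1* result was not tested.

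*Ptprb*, the phosphatase that acts on TEK, had 94.0%, 93.6% and 91.4% of its UMIs in endothelium, the largest share of any member in the controls. Unlike *Tek*, it was highest in EC2 at 7.29 and 8.01 UMIs per 10,000 in the controls. EC3 followed at 5.02 and 5.52, EC4 at 3.61 and 4.26 and SC at 2.79 and 2.82, each above the next in both controls. LEC stood at 0.907, 0.735 and 0.771, on 1, 1 and 11 UMIs. In surface epithelium *Ptprb* was at 0.00508, 0.0107 and 0.00696. These labels were therefore separated in the controls for *Ptprb*, whereas SC and EC2 were not separated for *Tek*.

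The *Ptprb* level was lower in *Angpt1*ΔNC endothelium without passing the test. It was 4.33 per 10,000 in control 1, 4.93 in control 2 and 3.54 in *Angpt1*ΔNC, with a log2 difference of -0.22 ± 0.16 (edgeR adjusted p = 0.435). EC2 (7.29, 8.01 and 5.15) and EC4 (3.61, 4.26 and 2.65) lay below both controls, and SC had 2.79, 2.82 and 2.73. Fitted alone, the differences were -0.49 in EC2 (edgeR adjusted p = 0.404), -0.40 in EC4 (edgeR adjusted p = 0.437) and 0.06 in SC (edgeR adjusted p = 0.952). In TM stroma *Ptprb* had 38, 43 and 33 UMIs (0.10 ± 0.37, edgeR adjusted p = 0.893), and its TM5 level was 0.205, 0.0265 and 0.125, with the value of *Angpt1*ΔNC between those of the controls.

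*Svep1*, the matrix partner of ANGPT1, was a stromal transcript, with 95.2%, 96.5% and 95.9% of its UMIs in TM stroma and 0, 2 and 0 UMIs in endothelium. TM5, a TM label in the study, was highest in the controls at 1.30 and 1.58 UMIs per 10,000. TM4 (1.14 and 1.20), TM2 (0.947 and 1.24), TM11 (0.815 and 1.25) and TM10 (0.721 and 1.18) overlapped with their neighbours, and TM3 had 0.874 and 0.984. TM6 and TM8, which were among the labels richest in *Angpt1*, had little *Svep1*, at 0.110 and 0.154 in TM6 and 0.0659 and 0.0950 in TM8. In TM4, 34.6% and 29.4% of control cells held a UMI of both genes.

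The *Svep1* level of *Angpt1*ΔNC lay above the controls in some stromal labels and below them in others. TM stroma had 0.558 per 10,000 in control 1, 0.757 in control 2 and 0.960 in *Angpt1*ΔNC, a log2 difference of 0.54 ± 0.20 that did not pass (edgeR adjusted p = 0.137) and that was 0.31 without control 1 and 0.83 without control 2. TM2 had 0.947, 1.24 and 1.82, of which 44 of 528 UMIs in *Angpt1*ΔNC came from 1 cell (1.71 without it), and fitted alone gave 0.67 ± 0.22 (edgeR adjusted p = 0.198). TM5 (1.30, 1.58 and 1.02) and TM6 (0.110, 0.154 and 0.0410, on 5, 6 and 1 UMIs) lay below both controls. TM10 did so too, at 0.721, 1.18 and 0.318, with 61 of 194, 74 of 167 and 33 of 188 cells positive. Every other TM label lay above both controls, by little in TM3 and TM8. Fitted alone, TM10 gave -1.53 ± 0.28 on the log2 scale (edgeR adjusted p = 4.29e-06). In cluster 17 *Svep1* had 2, 22 and 33 UMIs, and the difference did not pass (1.26 ± 0.67, edgeR adjusted p = 0.347). In TM10, then, *Svep1* lay below both controls in *Angpt1*ΔNC. *Tek* lay above both there, but its interval in *Angpt1*ΔNC (0.401 to 0.632) overlapped that of control 1 (0.308 to 0.541). The level of control 2 was 0.165, and the *Tek* call was close to the threshold. The TM10 fits of *Svep1* and *Tek* were added after seeing the data, and no alternative was run for them.

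**Figure D5:**
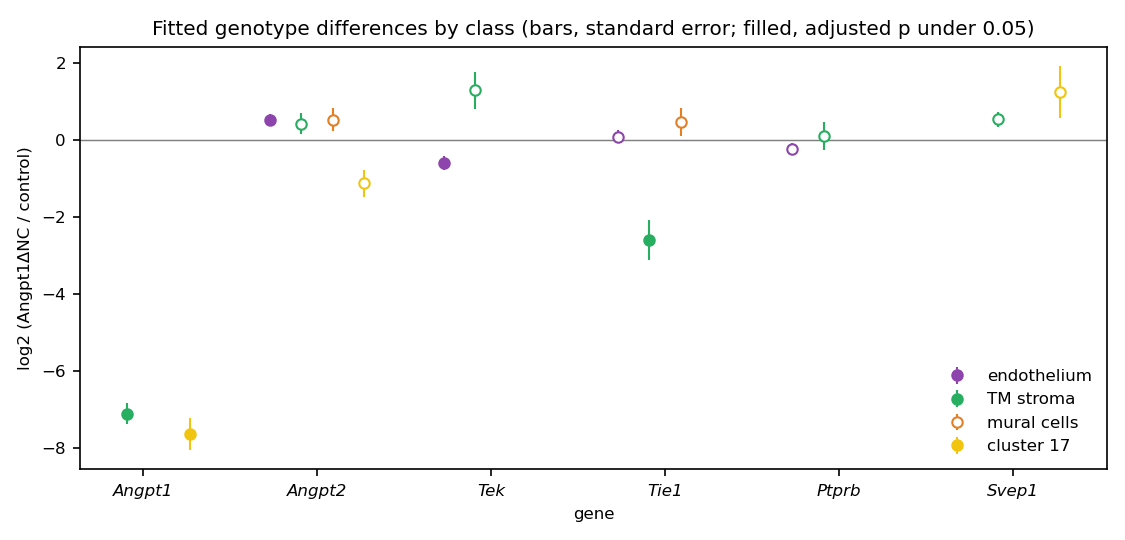
Fitted genotype difference (y axis, log2 of *Angpt1*ΔNC over control) of each gene (x axis) in the 4 cell classes, with standard errors as bars and filled points where the edgeR adjusted p was under 0.05. *Angpt1* in mural cells, at 0 UMIs in *Angpt1*ΔNC, is not drawn. Endothelial *Angpt2* (0.53) and *Tek* (-0.58) lie on opposite sides of 0, and *Tie1* in TM stroma is at -2.60.

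The 3 genes whose levels over labels were most like each member were taken from 12885 genes by Pearson's correlation over the 34 labels with at least 20 control cells. For *Tek* they were *Shank3* (0.967), *Mmrn2* (0.963) and *Unc45b* (0.963), for *Tie1* *Adgrf5* (0.962), *Shank3* (0.955) and *Mmrn2* (0.953), and for *Ptprb* *Grrp1* (0.992), *Robo4* (0.992) and *Mmrn2* (0.991). *Mmrn2*, an endothelial matrix protein, was thus on all these lists. For *Angpt2* they were *Caskin2* (0.871), *Insr* (0.845) and *Clec14a* (0.843). For *Angpt1* they were *Smoc1* (0.933), *Gdf10* (0.926) and *Nrk* (0.899), and for *Svep1* *Wisp2* (0.944), *Fam180a* (0.910) and *Clec11a* (0.904). Between members the values were 0.952 for *Tek* and *Ptprb*, 0.910 for *Tek* and *Tie1*, 0.942 for *Tie1* and *Ptprb* and 0.608 for *Angpt1* and *Svep1*. The labels share libraries and were made from the same cells, so these values are descriptions only, and with Spearman's correlation 2 of the 3 genes stayed for *Angpt1* and 0 for each of the other members.

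Of a wider list of 46 pathway genes (ligands, receptors, partners, adaptors, kinases, effectors and targets of the transcription factor FOXO1), 39 were tested in endothelium, where 7 were higher and 5 lower in *Angpt1*ΔNC, beside 8.12% of all genes tested that were higher and 4.82% that were lower. Their median log2 difference was 0.01, against -0.02 over all genes. In every class the list genes besides the members were read from the main fit alone. Some alternatives lost the endothelial *Angpt2* and *Tek* calls, and whether the calls of the other list genes hold under them was not tested. *Foxo1*, which AKT holds out of the nucleus, rose by 0.89 (edgeR adjusted p = 8.39e-05), and the adherens junction cadherin *Cdh5* by 0.53 (edgeR adjusted p = 0.0116). The integrin subunits split, as *Itgav* (0.68, edgeR adjusted p = 0.00522) and *Itga5* (0.63, edgeR adjusted p = 0.0181) rose and *Itga9* (-0.95, edgeR adjusted p = 0.00697) fell. *Pear1*, another receptor, rose by 0.71 (edgeR adjusted p = 0.0254). The flow-responsive factor *Klf2* changed by -0.67 (edgeR adjusted p = 0.00652). The shares of SC and LEC cells given above moved with these endothelial values too, and their part was not tested.

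The genes listed as FOXO1 targets under TEK control did not move together in endothelium. *Angpt2* rose, as above. *Apln*, a peptide of sprouting endothelium, had 116, 109 and 6 UMIs (log2 change -3.43, edgeR adjusted p = 8.08e-08), and the matrix gene *Ctgf* had 359, 349 and 121 (-0.77, edgeR adjusted p = 0.00509). *Esm1* (-0.04, edgeR adjusted p = 0.915) and *Igfbp3* (-0.03, edgeR adjusted p = 0.937) did not pass, and *Birc5*, with 7, 15 and 0 UMIs, did not either (edgeR adjusted p = 0.0791).

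In TM stroma 44 genes of the list were tested, 0 were higher and 5 lower, with a median of -0.21 against -0.01 over all genes, of which 3.46% were higher and 5.52% lower. Besides *Angpt1* and *Tie1* these were the third angiopoietin ligand *Angpt4*, with 284, 359 and 103 UMIs (-1.24, edgeR adjusted p = 0.00673), the growth factor binding protein *Igfbp3* (-2.38, edgeR adjusted p = 0.00140) and *Cdh5* (-1.89, edgeR adjusted p = 0.0388). TM7 made up 23.8% and 22.2% of TM stroma cells in the controls and 8.94% in *Angpt1*ΔNC, and the part of such shifts in these values was not tested. In mural cells 37 were tested, with 3 higher and 7 lower and a median of -0.27 against -0.05 over all genes, of which 9.12% were higher and 7.23% lower. There 55.8% of all calls were higher, and 29.8% without TMM factors, which moved the median of all genes to -0.24. *Klf2* (-1.86, edgeR adjusted p = 4.52e-07) and *Ctgf* (-1.22, edgeR adjusted p = 1.29e-05) were lower, as was *Angpt1*. Lower too were the kinase genes *Mapk3* (-0.995, edgeR adjusted p = 0.00666) and *Pik3cb* (-2.15, edgeR adjusted p = 0.0261). The kinase gene *Akt1* (-0.64, edgeR adjusted p = 0.0334) and the regulator *Rasa1* (-0.88, edgeR adjusted p = 0.0198) were also lower. In the other direction, the kinase subunit *Pik3r1* (0.81, edgeR adjusted p = 0.00178), the focal adhesion kinase *Ptk2* (0.71, edgeR adjusted p = 0.0140) and *Itga5* (0.58, edgeR adjusted p = 0.0410) were higher. Cluster 19 made up 37.4% and 42.1% of mural cells in the controls and 15.7% in *Angpt1*ΔNC, the smooth muscle markers summed to 196, 190 and 106 UMIs per 10,000, and the part of these shifts in the mural values was not tested. In cluster 17 only *Angpt1* passed among the 37 tested, where 0.175% of all genes were higher and 0.114% lower.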

How the data were processed

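UMI counts of 31053 genes were measured in 3 droplet libraries, 2 control and 1 *Angpt1*ΔNC, each grouped by its genotype label. The deposited matrices hold raw counts per gene and cell that the authors made with Cell Ranger against build mm10. The submitters' processing notes name Cell Ranger 2.1.1 and Seurat 3.1.3, while the matrix headers name Cell Ranger 3.0.2. A deposited table gives the authors' cluster label of each kept cell, after their quality filters and doublet removal. Its integrated expression values were not used, and 0 columns of other samples were present.

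Counts were summed per class and library and fitted with edgeR 4.0.16 in R 4.3.3 (TMM factors, default filter on low counts, quasi-likelihood F-test, Benjamini-Hochberg adjustment over all genes tested, threshold 0.05). With 2 libraries against 1, a single residual degree of freedom remains, and the spread of the *Angpt1*ΔNC group is taken to equal that of the controls. Nothing shows whether the libraries came from separate litters, so p-values measure only the spread between these pools. Fits of single labels (SC, EC2, EC3, EC4, TM2, TM4, TM10 and cluster 20) were added after seeing the data. So were the interaction terms between classes. DESeq2 1.42.0, other size factors, library totals without TMM factors (added after seeing the data), no filter, deeper cells (at least 2000 UMIs), male-typed cells, equal label weights (levels without TMM factors, LEC left out), thinned cells and leaving out a control were alternatives. Levels and their exact 95% Poisson intervals, and floors of 3 counts, were computed with scipy 1.17.1, numpy 2.4.6 and pandas 2.3.3 in Python 3.11.15. Likeness over labels used log2(UMIs per 10,000 + 0.1) of the controls, among genes with at least 200 control UMIs. Positions come from GENCODE M21 and start regions from RefSeq, whose table gave 3 of the 6 members. Figures used matplotlib 3.10.9. The fits were also run on simulated data with the same spread in all libraries, which cannot check whether the *Angpt1*ΔNC pool varies as the controls do.

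The members, the pathway list and the marker lists were chosen with earlier results of these data known. Named besides the members are list genes that passed in a class (at most 10 per class by smallest p), the 3 genes most like each member, and markers where a result needs them. *Ccl21a*, with duplicate entries, was left out of the lymphatic markers. A share of cells with a UMI depends on depth, whose median was 6329.5, 6393.5 and 7444 UMIs per cell.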

Additional observations from a re-analysis of the deposited data

Results flagged for a closer look

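Genotype differences of the same gene were compared between cell classes with an interaction term (edgeR, library as a block). This comparison was added after seeing the data. For the members, taken over every pair of classes where the term gave a value, 5 of these comparisons passed. All of them involved *Tie1* in TM stroma or *Angpt2* in cluster 17. Over all genes, 589 of 13020 passed between endothelium and TM stroma, and 951 of 10879 between endothelium and mural cells. Between TM stroma and mural cells 1094 of 13220 passed. In cluster 17 against endothelium it was 763 of 10866, against TM stroma 914 of 12898 and against mural cells 476 of 11595. For *Tie1*, the log2 difference between *Angpt1*ΔNC and the controls in TM stroma minus that in endothelium was -2.66 (adjusted p = 0.0134), and that in mural cells minus that in TM stroma was 2.99 (adjusted p = 0.0192). *Tie1* UMIs in TM stroma numbered 61, 51 and 7, so both comparisons rest on few counts in that class. For *Angpt2*, the difference in cluster 17 was lower than in endothelium (-1.64, adjusted p = 0.000922), than in TM stroma (-1.50, adjusted p = 0.0131) and than in mural cells (-1.66, adjusted p = 0.0306). Cluster 17 had 21, 49 and 19 *Angpt2* UMIs in control 1, control 2 and *Angpt1*ΔNC. The classes come from the same 3 libraries, so these comparisons share their samples. No group has enough libraries for a check of single samples that stand apart.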

How the results depend on the processing

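No paired analysis was possible because the replicate numbers of the controls follow accession order and there is a single *Angpt1*ΔNC library. Of 101 alternative fits of a member with a test, 86 kept the direction and the side of the threshold. Adjusted p ranged over the alternatives from 0.00291 to 0.717 for endothelial *Angpt2*, from 0.000773 to 0.711 for endothelial *Tek* and from 9.55e-05 to 0.477 for *Tek* in TM stroma. With DESeq2 the calls fell to 238 genes in endothelium, 637 in TM stroma and 536 in mural cells, from 1250, 1251 and 1898, and rose from 33 to 179 in cluster 17, and endothelial *Angpt2* (0.54), endothelial *Tek* (-0.58) and TM stroma *Tie1* (-2.61) no longer passed. Endothelial *Angpt2* and *Tek* also did not pass without LEC (0.48 and -0.48, an alternative chosen after seeing the data) or in blood endothelium alone (0.26 and -0.61). Without TMM factors, chosen after seeing the data, endothelial *Angpt2* did not pass (0.36), endothelial *Tie1* changed sign (-0.07), and in cluster 17 *Angpt2* passed (-1.28) among 1602 calls, 26.2% of them higher against 60.6%, with a median of -0.19 over all genes. Without a filter, 2441 genes were called in TM stroma and 13 in cluster 17, and *Tek* (1.29) and *Svep1* (0.53) passed in TM stroma. Cluster 17 gave 15 calls with RLE size factors, 502 in cells with at least 2000 UMIs and 443 in male-typed cells. In male-typed cells *Tie1* in endothelium (-0.10) and *Angpt2* in TM stroma (-0.61) changed sign, and *Tek* in TM stroma passed (2.44). Equal weight for each label also drops the TMM factors and, in endothelium, LEC. With it *Tie1* in endothelium (-0.07, as without TMM factors alone), *Ptprb* in TM stroma (-0.30) and *Tie1* in mural cells (-0.03) changed sign, and endothelial *Tek* (-0.39), TM stroma *Angpt1* (-6.79), *Tek* (0.68) and *Svep1* (0.24) and mural *Angpt2* (0.09) moved. Leaving out either control, which leaves no test, gave 0.11 to 0.89 for *Angpt2*, 0.72 to 2.19 for *Tek* and 0.31 to 0.83 for *Svep1* in TM stroma, and 0.74 to 3.14 for *Svep1* in cluster 17. After thinning to 2000 UMIs per cell, the share of cells with a UMI, *Angpt1*ΔNC minus the control mean, went from -41.0 to -19.9 percentage points for *Angpt1* in TM stroma, from 1.05 to -4.10 for *Tie1* and from -9.50 to -3.20 for *Ptprb* in endothelium, and from 9.75 to 3.90 for *Svep1* in TM stroma. With Spearman's correlation 0 of the 3 most alike genes stayed for *Angpt2*, *Tek*, *Tie1*, *Ptprb* and *Svep1*. Thinning and leaving out cells lower the counts by construction, and beyond that the cause was not tested. DESeq2 gave no adjusted p for *Angpt2* and *Svep1* in cluster 17.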

Other observations

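In SC, *Angpt2* and *Tek* UMIs were found in the same cell in 3 of 46 cells of control 1, 4 of 63 of control 2 and 2 of 15 of *Angpt1*ΔNC, whereas in EC3 they were found together in 39 of 118, 48 of 118 and 20 of 58. *Tek* and *Ptprb* UMIs were found together in 47.1%, 51.1% and 36.4% of endothelial cells. *Angpt1* and *Svep1* were found together in 10.6% of TM stroma cells in each control and in 0.154% in *Angpt1*ΔNC. *Svep1* was also counted in cluster 13, at 0.317, 0.175 and 0.368 UMIs per 10,000. *Angpt1* in positive cells was mostly a single UMI, in 59.4% and 59.8% of the positive control cells and in 91.3% of the 23 positive *Angpt1*ΔNC cells.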
